A study of Homo sapiens with 8 samples.

Results

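The comparison described here sets the RNA bound by Argonaute 2 (Ago2) against total RNA in L1236 cells that carried an inhibitor of miR-155. L1236 is an established Hodgkin lymphoma cell line with a high level of miR-155. For this comparison it carried the retroviral pMSCV-PIG vector with a miR-155 sponge, a transcript made of repeated miR-155 binding sites that competes with natural targets, and GFP+ cells were sorted. The study regarded the inhibition as partial, and these arrays do not measure how much miR-155 the sponge took up. The Ago2-IP fraction (IP) came from a lysate precipitated with an anti-Ago2 antibody, and the total fraction (T) from the same cells. Its members are the 4 labelled samples of sponge cells out of 8 in the series, on 2 of 4 two-colour arrays. The other 4 samples are the same fractions of L1236 with the empty pMSCV-PIG vector (EV), GFP+ sorted as well, and their values stand beside the sponge values. Of 22282 array probes in the deposited table, 20063 were well above background in both T channels of sponge cells and were used.

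Each fraction was 1 RNA, labelled once with Cy3 and once with Cy5, so that the IP/T ratio was measured in 2 dye orientations. A value is the mean log2 IP/T of the array with IP in Cy5 and the array with IP in Cy3, and ± gives the SD over these 2 orientations. This SD covers labelling and hybridisation only. There was no second culture or precipitation per group, so no test was possible and no p-value is given. A probe or gene is called IP-enriched at an IP/T of at least 2 (log2 of 1) and IP-depleted at a T/IP of at least 2. The authors brought IP and T to the same distribution, so every ratio is relative to the other transcripts of its fraction and does not give an absolute amount bound.

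Ago2 is the effector protein of microRNAs. It holds the small RNA, whose seed (bases 2 to 8) pairs with sites mostly in the 3' part of a messenger RNA, and the bound complex recruits proteins of the GW182 (TNRC6) family that lead to translational repression and deadenylation. A transcript precipitated with Ago2 is therefore a candidate target of some microRNA in the cell, not of miR-155 alone. MiR-155 is processed from the noncoding transcript MIR155HG and is abundant in Hodgkin lymphoma and in activated B cells.

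The seeds of the microRNAs whose commonly named targets are described here show which transcripts can share a microRNA. Mature sequences are from RefSeq (GRCh38.p14), 5' to 3', with the seed in capitals.
miR-155-5p: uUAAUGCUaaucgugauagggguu
miR-17-5p: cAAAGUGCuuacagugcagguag
miR-20a-5p: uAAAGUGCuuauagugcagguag
miR-93-5p: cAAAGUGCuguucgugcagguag
miR-106b-5p: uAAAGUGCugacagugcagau
let-7a-5p: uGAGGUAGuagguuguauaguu
let-7f-5p: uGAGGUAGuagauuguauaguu
miR-15a-5p: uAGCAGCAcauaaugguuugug
miR-16-5p: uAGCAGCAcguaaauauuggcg
miR-21-5p: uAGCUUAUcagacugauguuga
The 4 members of the miR-17 family have the seed AAAGUGC in common. Let-7a and let-7f share GAGGUAG, and miR-15a and miR-16 share AGCAGCA. The seed of miR-155, UAAUGCU, is shared with none of the others shown.

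All 12 markers of Hodgkin and Reed-Sternberg cells, TNFRSF8 (CD30) and CCL17 among them, were well above background in both T channels. Of 8 B lineage markers 5 were, while MS4A1 (CD20), PAX5 and EBF1 were not. This was so for 3 of 7 T cell markers and 2 of 7 myeloid markers. Spots well above background made up 54.1% in sponge T labelled with Cy5, the lowest of 8 channels, against 61.0% to 65.7% in the other 7. No spot was saturated.

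In sponge cells, 3110 probes (15.5%) were IP-enriched and 3890 (19.4%) were IP-depleted. The SD of these shares over the orientations was 2.58 and 3.03 percentage points. At 4-fold the numbers were 911 and 294, and at 8-fold 238 and 77, so that the far end of the distribution held more enriched than depleted probes although depletion was the more frequent at 2-fold. The median log2 IP/T was -0.19 over probes. Both orientations passed 2-fold for 2547 of the enriched and 2772 of the depleted probes. Enriched probes made up 44.4% of all calls. After normexp background correction, which shrinks ratios of dim spots, they made up 59.6% (with loess) or 54.5% (with quantile normalisation). Over all 22282 probes, without the requirement of a T signal well above background, 3943 were enriched and 3941 depleted. The split between the 2 directions at 2-fold therefore depends on this requirement and on the treatment of the background.

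**Figure D1:**
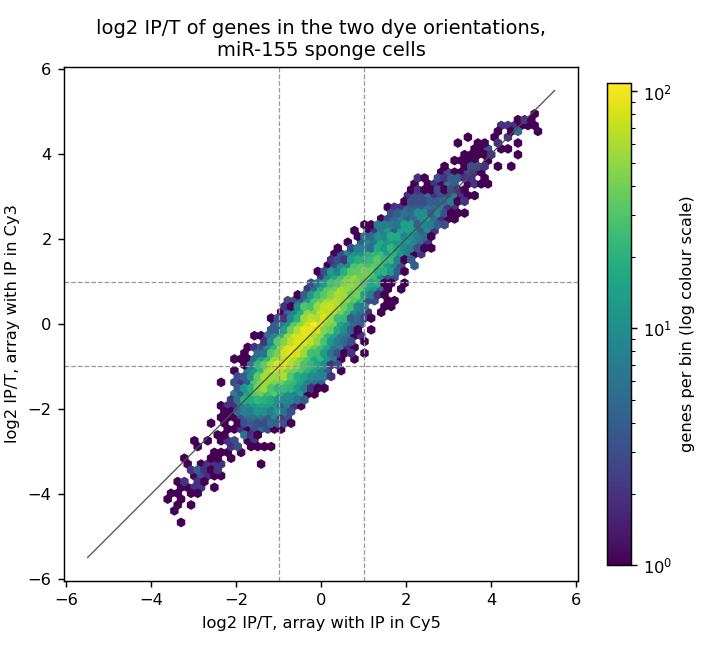
log2 IP/T of 10375 genes in sponge cells on the array with IP in Cy5 (horizontal axis) and on the array with IP in Cy3 (vertical axis), with the number of genes per bin as colour on a log scale, dashed lines at 2-fold and the line of equality. The orientations gave Pearson's r 0.93 across genes, and strongly depleted genes lie below the line of equality.

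The orientations ranked probes alike, with Pearson's r 0.92 and Spearman's rho 0.90 across the 20063 probes, which share their array, RNA and dyes and are not independent replicates. The median SD over orientations was 0.21, and the authors had removed probes whose Cy3 and Cy5 values differed by more than 2-fold, which lowers this SD. Of the probes left out for a dim T signal (2219), 833 had an IP/T of at least 2 and 51 a T/IP of at least 2. The selection on T therefore removed many more transcripts high in IP than low in IP. Of the enriched probes 91.8% were enriched in EV cells too (90.7% of those enriched in EV cells), and of the depleted 87.3% were depleted there too (81.9% of those depleted in EV cells). None was enriched in one cell population and depleted in the other.

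Of the probes, 14233 could be named, for 10375 genes, each taken at its probe of highest signal. Among genes, 1698 (16.4%) were enriched and 1923 (18.5%) depleted, and the median log2 IP/T was -0.17 ± 0.05. These shares and this median are the background for every gene list that follows. In 3033 genes 2 or more probes were measured, and in 23 of these 1 probe was enriched and another depleted. Of the 777 of them with an enriched probe, all probes were enriched in 350, and of the 623 with a depleted probe all were depleted in 268.

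MIR155HG, the host transcript of miR-155, was on the T side. Its log2 signal in sponge cells was 10.84 (Cy3) and 10.93 (Cy5) in T and 10.18 (Cy3) and 10.15 (Cy5) in IP. The fractions did not overlap, and log2 IP/T was -0.72 ± 0.04 (EV -0.96 ± 0.15). The AGO2 transcript itself had a log2 IP/T of 0.31 ± 0.29, close to its EV value of 0.32 ± 0.27. Neither passed 2-fold.

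Among genes with all 4 sponge channels well above background and orientations at most 1 apart on the log2 scale, the highest IP/T was found for SGK1, ZNF254, BTG2, CFL2, ZNF430, ZNF92, MMD, ZNF680, ZNF429, FAM83D, YES1 and ZNF100, with log2 IP/T from 4.61 to 4.98. Zinc finger genes made up 6 of these 12. A gene with several such probes was taken here at its most extreme one, not at its brightest. The second measured probes of ZNF254 and ZNF92 were at 3.97 and 3.55. In each of the 12 genes both IP channels were above both T channels. SGK1, a serum- and glucocorticoid-induced kinase, had a log2 signal of 11.86 and 11.84 in T (Cy3 and Cy5) and 16.79 and 16.88 in IP. Its IP/T was 31.6-fold, log2 4.98 ± 0.05, the highest of all genes (EV 5.03 ± 0.21). BTG2, an antiproliferative partner of the CCR4-NOT deadenylase, was at 11.83 and 12.18 in T and at 16.86 and 16.90 in IP, a log2 IP/T of 4.87 ± 0.28. CFL2, an actin-severing cofilin, had T signals of 8.56 and 8.72 and IP signals of 13.33 and 13.64, and YES1, a Src family kinase, 8.17 and 7.87 in T and 12.60 and 12.70 in IP. ZNF100, the lowest of the 12, still had an IP/T of 24.5-fold. The SD over orientations was at most 0.33 in these genes, and in 11 of 12 the EV value was higher than the sponge value. Under the processing alternatives YES1 and CFL2, the dimmest in T, shrank to as little as 2.93 and 3.56. The rest of the 12 stayed at 4.35 or higher.

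By the same criteria the genes with the lowest IP/T were OTUD7A, NEUROG3, ZSCAN10, CLDN5, ZNF575, CYP4F2, POU3F3, KCNJ12, SLC17A4, TBX1, GNRH2 and C3AR1, at log2 IP/T from -3.93 to -3.45. Many are known from other tissues. NEUROG3, POU3F3 and TBX1 are developmental transcription factors, CLDN5 is a tight junction protein of endothelium, and GNRH2 is a neuropeptide. NEUROG3 had log2 signals of 14.29 and 14.92 in T (Cy3 and Cy5) against 10.63 and 10.85 in IP, a log2 IP/T of -3.86 ± 0.60. ZSCAN10 (14.80 and 15.55) and POU3F3 (13.95 and 14.69) were as bright in T, where the median probe was at 9.89 and 9.85. Each of these 3 genes rests on 1 measured probe, and whether it measures the named transcript was not tested. OTUD7A, a deubiquitinase, had 11.62 and 12.61 in T against 8.20 and 8.17 in IP, a log2 IP/T of -3.93 ± 0.68. The second measured probes of OTUD7A and ZNF575 were much less depleted, at -1.63 and -1.10. CLDN5 was at 12.22 and 12.60 in T and 8.63 and 8.75 in IP, a log2 IP/T of -3.72 ± 0.35. No fraction of these 12 genes overlapped the other. The orientations differed more than among the highest genes, with SDs from 0.28 to 0.68, and in all 12 the array with IP in Cy3 gave the lower value. After normexp correction TBX1 was no longer past 2-fold (log2 IP/T -0.80 with loess, -0.89 with quantile normalisation). Others stayed past 2-fold but shrank under the processing alternatives, to as little as -1.13 for SLC17A4, -1.16 for KCNJ12 and -1.84 for GNRH2. The listed probes of NEUROG3, ZSCAN10, POU3F3 and ZNF575 stayed at -3.15 or lower under every alternative that held them.

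**Figure D2:**
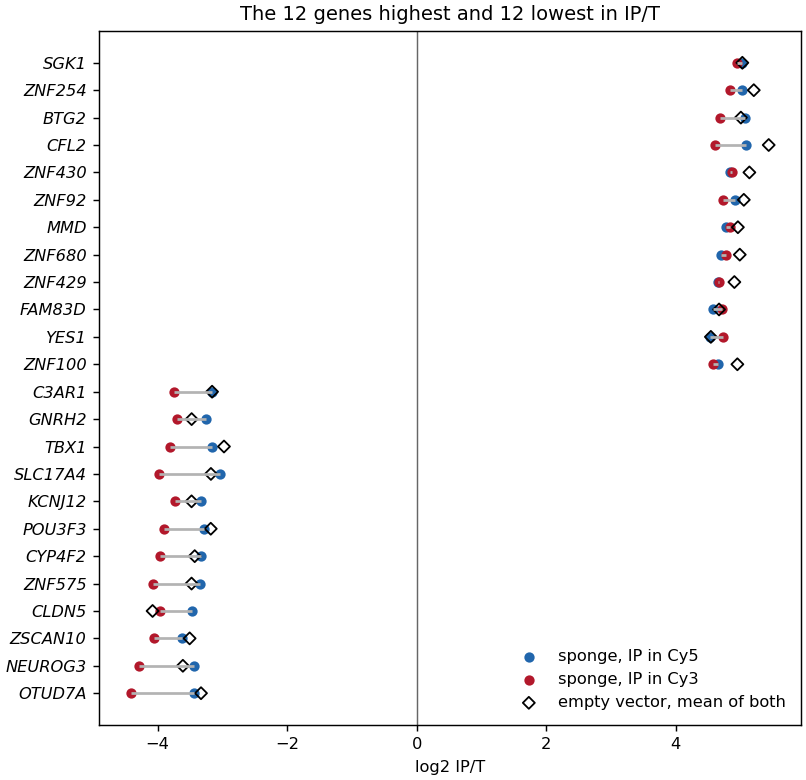
log2 IP/T of the 12 genes highest and the 12 lowest in sponge cells, with the 2 dye orientations as blue (IP in Cy5) and red (IP in Cy3) dots joined by a line and the EV mean as an open diamond. The highest genes sit between 4.61 and 4.98 with nearly coinciding dots, and the lowest between -3.93 and -3.45 with wider gaps.

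Commonly named miR-155 targets were mostly on the IP side in cells with the sponge. Of 28 measured genes, 16 were enriched and 1 was depleted, and the median log2 IP/T was 1.14 ± 0.19 against -0.17 over all genes. The study itself had picked 8 of these genes, DET1 and PSIP1 among them, by IP/T in another cell line, described below. The list is therefore not wholly independent of the study's own IP/T values. WEE1, the kinase that holds back entry into mitosis, had log2 signals of 8.94 and 8.61 in T (Cy3 and Cy5) and 13.27 and 13.21 in IP, a log2 IP/T of 4.46 ± 0.28. SOCS1, an inhibitor of JAK-STAT signalling, was at 13.86 and 14.49 in T and at 18.20 and 18.37 in IP, a log2 IP/T of 4.11 ± 0.56. DET1, a component of a ubiquitin ligase, was at 9.78 and 9.53 in T and at 13.56 and 13.58 in IP, or 3.92 ± 0.16. BACH1, a transcriptional repressor of antioxidant genes, stood at 3.36 ± 0.21. In EV cells the same probes had a median of 1.32 ± 0.19, with 16 enriched and 1 depleted.

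The study had also picked miR-155 targets in ST486, a Burkitt lymphoma line made to overexpress the microRNA. They were chosen for an IP/T of at least 2 in the same kind of assay, and an IP/T at least 2-fold lower with empty vector. In the sponge cells used here these genes were higher still. Because they were chosen by IP/T, their median is not on equal terms with that of the commonly named targets. Of 45 measured, 35 were enriched and 0 depleted, with a median log2 IP/T of 1.70 ± 0.08 (EV 1.96 ± 0.03, 39 enriched). The study itself reported most of its ST486 genes as enriched in L1236 cells with empty vector, and mildly less so with the sponge. Its count covered more of the genes than were measured here. Of the measured genes, 8 are also in the first list, which is 17.8% of the ST486 genes and 28.6% of the commonly named targets. ZFP36, which binds AU-rich elements and speeds messenger decay, was at 12.74 and 13.02 in T and 17.49 and 17.39 in IP, a log2 IP/T of 4.56 ± 0.13. VAMP3, a vesicle SNARE, had 4.22 in either orientation.

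The study followed up 6 of the ST486 genes, and these are given here for that reason, with all of their probes. DET1 has been described above. JARID2 was at 1.69 ± 0.25, and HOMEZ at 1.95 ± 0.16 on one probe and 1.41 ± 0.04 on the other. For PSIP1 and TBRG1 the brightest probe, which stands for the gene in the lists, differed from another probe of the same gene. The brightest PSIP1 probe was at 0.00 ± 0.63 and a further one at 0.83 ± 0.38. The last probe, which alone is assigned to the transcript variant whose 3' part holds the predicted miR-155 sites, had log2 signals of 9.47 and 9.15 in T (Cy3 and Cy5) and 12.25 and 12.38 in IP, a log2 IP/T of 3.00 ± 0.14 (EV 3.36 ± 0.06). Its fractions did not overlap. The TBRG1 locus gives a protein-coding transcript called NIAM, which holds a miR-155 site, and a noncoding one. Its probe in the deposited table had a log2 IP/T of 0.25 ± 0.10. Its other probe is not in that table, and in the scanner signals, quantile normalised over the 8 channels, it was at 5.94 and 4.78 in T and 9.29 and 9.11 in IP, or 3.85 ± 0.94 (EV 3.57 ± 0.62). It was well above background in both IP channels but in only 1 of 2 T channels, so this value is uncertain. The files do not say which TBRG1 probe detects NIAM alone. In ST486 cells the study reported a much brighter signal for the probe of both transcripts, and IP enrichment for the NIAM probe only. Here the probe in the gene lists was the brighter of the 2 and was not enriched, so its value is not read as one of NIAM. Neither TRIM32 probe was well above background in any sponge channel.

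Targets of other microRNAs were on the IP side as well. The median log2 IP/T was 1.96 ± 0.04 for miR-21 targets (7 of 10 enriched), 1.46 ± 0.22 for miR-17 family targets (10 of 18), 1.33 ± 0.05 for let-7 targets (12 of 18) and 0.97 ± 0.19 for miR-15 and miR-16 targets (6 of 13). Depleted members were 0, 0, 2 and 0. BCL2L11 (BIM, a proapoptotic miR-17 family target) stood at 3.08 ± 0.02, ZNFX1 at 3.04 ± 0.28 and E2F3 at 2.71 ± 0.38, whereas E2F1, the lowest of that list, had -0.24 ± 0.03. IGF2BP3, an oncofetal RNA-binding protein and let-7 target, reached 3.07 ± 0.44, ARID3B 2.77 ± 0.44 and MYC 2.36 ± 0.57, and HRAS was at -1.65 ± 0.24. In the list of miR-15 and miR-16 WEE1 was again the highest. MCL1, an antiapoptotic target of miR-15 and miR-16, had 2.71 ± 0.06 and CCNE1 2.63 ± 0.35. In the miR-21 list BTG2 was followed by DUSP10 at 2.58 ± 0.24 and NFIB at 2.50 ± 0.00, with PDCD4 lowest at 0.45 ± 0.42. After normexp correction with loess the median fell to 1.21 for miR-21 targets and to 0.84, under 2-fold, for miR-17 family targets.

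The 5 lists of commonly named targets held 82 different genes, 5 of them in more than 1 list. Of the 82, 48 were enriched and 3 depleted, with a median of 1.37. In EV cells the medians were 1.32 for miR-155, 2.09 for miR-21, 1.64 for the miR-17 family, 1.502 for let-7 and 1.12 for miR-15 and miR-16. Sponge values were below EV values in 24 of 28 miR-155 targets, 9 of 10 miR-21 targets, 14 of 18 miR-17 family targets, 15 of 18 let-7 targets and 11 of 13 miR-15 and miR-16 targets. The median difference between sponge and EV cells was -0.18 for miR-155 targets, -0.16 for miR-21, -0.06 for the miR-17 family, -0.11 for let-7 and -0.14 for miR-15 and miR-16 targets on the log2 scale. Over all genes sponge values were below EV values in 48.4%, and over the enriched genes in 63.4%. The difference between the cell populations, 1 RNA each, was not tested.

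Immediate early genes and inhibitors of signalling were also on the IP side, and some of them, such as BTG2, ZFP36 and SOCS1, are in the target lists above as well. Immediate early genes, which growth factors induce within minutes, had a median log2 IP/T of 1.92 ± 0.03, with 12 of 17 enriched and 1 depleted. BTG2 and ZFP36 were the highest, followed by IER3 at 3.47 ± 0.08 and DUSP2 at 3.18 ± 0.15. FOSB was the depleted member, at -1.10 ± 0.81, with orientations of -0.53 and -1.68 on either side of the call. Inhibitors of NF-kB and the SOCS genes had a median of 1.63 ± 0.21, with 11 of 16 enriched and 0 depleted. SOCS5 was at 6.89 and 6.83 in T and at 11.22 and 11.35 in IP (4.42 ± 0.05), SOCS6 was at 3.85 ± 0.14 and SOCS3 at 3.26 ± 0.32. SOCS1, SOCS3, SOCS5 and SOCS6 were thus each above 8-fold.

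SMAD and TGF-beta family receptor genes had a median log2 IP/T of 1.78 ± 0.25, with 11 of 15 enriched and 0 depleted. The highest was TGFBR3 (betaglycan, a coreceptor) at 2.95 ± 0.28, then the ubiquitin ligase SMURF2 at 2.24 ± 0.07 and the SMAD repressor SKI at 2.18 ± 0.29. Of these 15 genes, SMAD1, SMAD2 and SMAD5 are also in the miR-155 list. After normexp correction, with loess or quantile normalisation, the median was 0.78, below 2-fold. RAB genes, small GTPases of vesicle traffic, had a median of 0.50 ± 0.14, with 11 of 41 enriched and 3 depleted. RAB12 (3.99 ± 0.44) and RAB13 (3.03 ± 0.16) led this list, while RAB18 (-1.22 ± 0.02) lay lowest. Regulators of the G1 phase had a median of 0.47 ± 0.24, with 8 of 23 enriched and 0 depleted, led by E2F5 at 3.55 ± 0.09 and E2F3.

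Transcripts of the microRNA machinery itself were on the IP side. The median log2 IP/T of 12 genes was 0.73 ± 0.11, with 4 enriched and 0 depleted. TNRC6A (GW182), which links Ago proteins to the deadenylases, had log2 signals of 8.70 and 9.01 in T and 11.98 and 12.06 in IP, or 3.17 ± 0.28. DICER1, the nuclease that cuts out the mature microRNA and a known let-7 target, was at 2.21 ± 0.22, and AGO4 at 1.23 ± 0.61. Among deadenylation and decapping genes 9 of 24 were enriched and 1 was depleted (median 0.65 ± 0.19). After BTG2 came LSM14A at 2.71 ± 0.02 and TOB1 at 1.74 ± 0.09, and CNOT3 was at -1.68 ± 0.14.

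**Figure D3:**
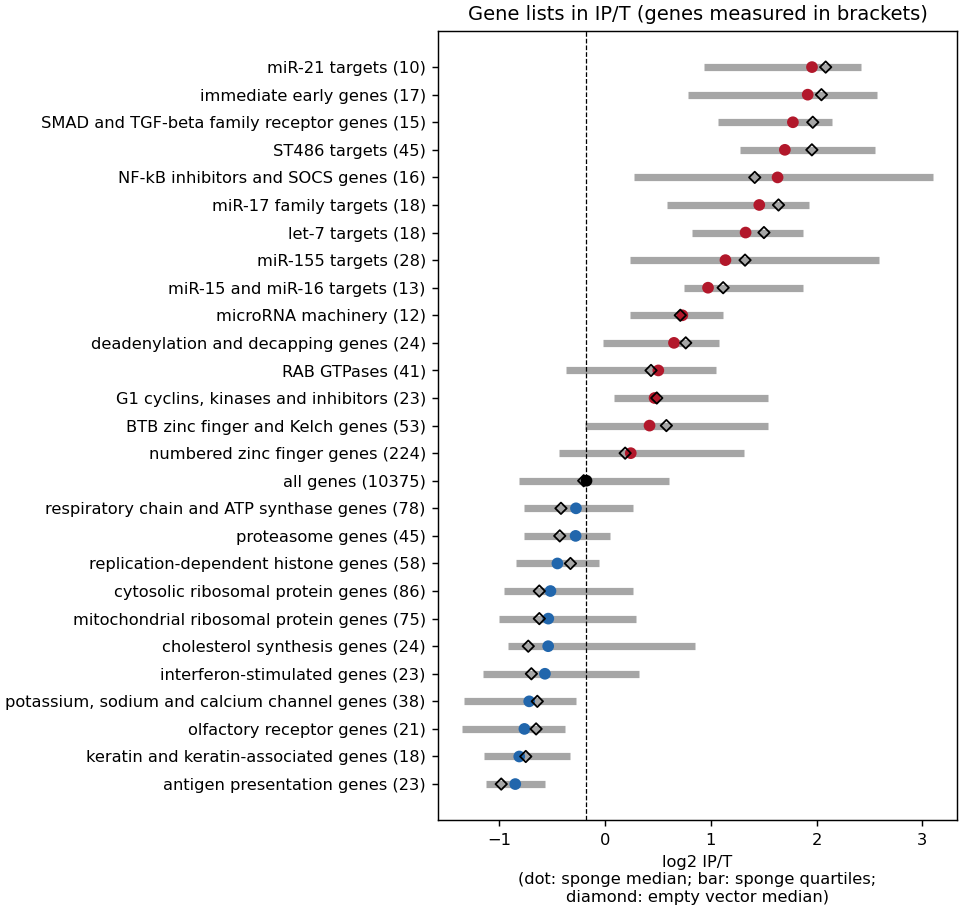
Median log2 IP/T of gene lists in sponge cells (dots, red above and blue below the median of all genes, which is black and marked by the dashed line), with the quartiles as bars and EV medians as open diamonds, and the number of measured genes in brackets. MicroRNA target lists, immediate early genes, SOCS and SMAD genes lie at the top, up to 1.96, and antigen presentation genes at the bottom, at -0.85.

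Zinc finger genes split by their place on the chromosomes. Many of these genes encode DNA-binding repressors, and many, though not all, lie in clusters of neighbouring, duplicated genes. Over all 224 measured ZNF genes with a number the median log2 IP/T was only 0.24 ± 0.04, with 73 enriched and 26 depleted. Grouped into runs of ZNF genes at most 1 Mb apart in RefSeq's gene order, a grouping made after the values were seen, 10 runs held at least 5 measured genes. In the run from ZNF101 to ZNF254 on chromosome 19, 17 of 19 genes were enriched, with a median of 4.25 ± 0.07 (EV 4.49), and the 17 ranged from 2.75 (ZNF257) to 4.93 (ZNF254). Only ZNF101 (-0.82 ± 0.17) and ZNF14 (0.67 ± 0.02) of that run were not past 2-fold. In the run from ZNF722 to ZNF92 on chromosome 7, all 5 measured genes were enriched, with a median of 3.00 ± 0.27 (EV 3.35). It was 3.71 with each gene at the median of its probes and 4.09 with each at its probe of highest IP/T.

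The signals of single genes show the size of the step. ZNF254 was at 12.80 and 12.86 in T (Cy3 and Cy5) and at 17.70 and 17.82 in IP, and ZNF430 at 12.28 and 12.13 in T and at 16.99 and 17.11 in IP. ZNF92 of the chromosome 7 run had 12.51 and 12.42 in T and 17.14 and 17.43 in IP. In none of these genes did the channels of the fractions come near each other. Of 36 genes with a log2 IP/T of at least 4, 14 were numbered zinc finger genes, and 13 of these lay in the 2 runs, the other being ZNF678 on chromosome 1.

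The other 8 runs had lower medians. The run from ZNF653 to ZNF791 had 1.18 ± 0.36 (5 of 8 enriched). The largest, from ZNF628 to ZNF446 on chromosome 19, had -0.43 ± 0.09, with 5 of 25 enriched and 8 depleted, and the run from ZNF786 to ZNF775 on chromosome 7 -0.76 ± 0.34, with 0 of 6 enriched and 3 depleted. ZNF575, the lowest ZNF gene at -3.71 ± 0.52, belonged to the run from ZNF575 to ZNF296, whose median was -0.02 ± 0.13. The second measured ZNF575 probe was at -1.10. Genes of a run resemble each other in sequence, so that a probe may also measure its neighbours, and the probe sequences were not examined. The part of this in the result was not tested.

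**Figure D4:**
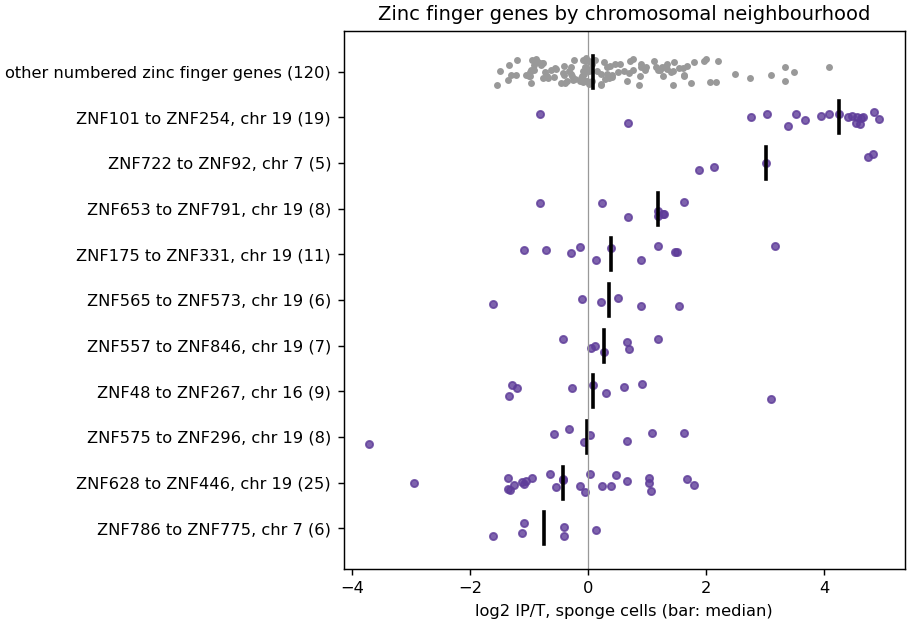
log2 IP/T of numbered zinc finger genes in sponge cells, each dot 1 gene and each bar a median, for runs of neighbouring genes named by their first and last gene (measured genes in brackets) and for the remaining 120 genes. The run from ZNF101 to ZNF254 has its median at 4.25 and the run from ZNF722 to ZNF92 at 3.00, and the other runs lie between -0.76 and 1.18.

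Outside its zinc finger genes chromosome 19 lay on the T side. Of its 766 measured genes 279 (36.4%) were depleted and 73 (9.53%) enriched, and its median of -0.73 ± 0.11 was the lowest of the chromosomes with at least 20 measured genes. Without the numbered zinc finger genes, 671 genes were left, with a median of -0.83 and 267 (39.8%) depleted against 18.5% over all genes. Chromosomes 22 and 16 followed at -0.60 ± 0.03 and -0.50 ± 0.03. Chromosome 4 had the highest median, 0.27 ± 0.16, with 72 of 312 genes enriched. These are descriptions across genes, which are not independent replicates.

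Genes spanning little of the genome were more often on the T side. With the genes in 10 equal groups by span, the share depleted was 29.1% in the shortest group and 13.3% in the longest, and the share enriched was 11.5% in the shortest, 20.8% in the ninth and 15.8% in the longest. The median gene span was 16.6 kb for depleted, 28.8 kb for those between and 33.4 kb for enriched genes. Spearman's rho between log2 IP/T and span was 0.17 across 10375 genes, which share their arrays, RNA and normalisation. The GC share of the promoter (250 bases before to 50 after the start in RefSeq) showed no such order. Its median was 65.7% in enriched and in depleted genes and 64.3% between them, and rho was 0.00 across the 8509 genes (82.0%) with a promoter sequence.

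**Figure D5:**
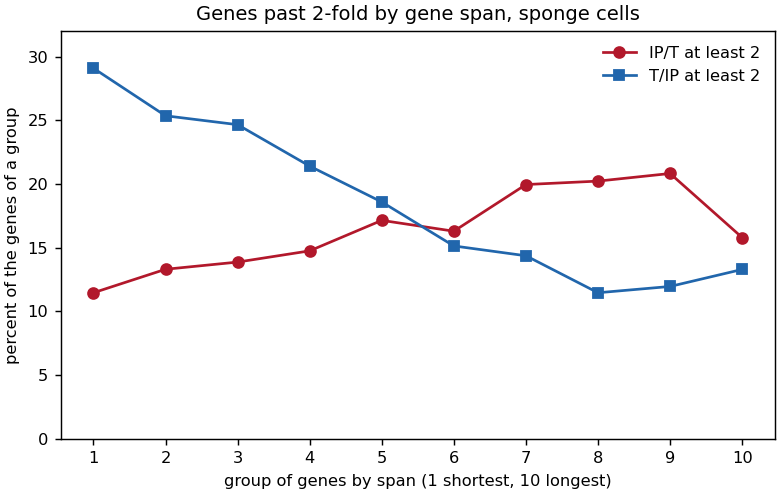
Percent of the genes with IP/T of at least 2 (red circles) and with T/IP of at least 2 (blue squares) in sponge cells, in 10 equal groups of genes ordered by span. The depleted share is 29.1% in the shortest and 13.3% in the longest group, and the enriched share is highest in the ninth, at 20.8%.

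Ribosomal protein genes lay below the median of all genes. Cytosolic ribosomal protein genes had a median log2 IP/T of -0.52 ± 0.01, with 19 of 86 depleted and 8 enriched, and mitochondrial ribosomal protein genes -0.54 ± 0.13, with 20 of 75 depleted and 5 enriched. The depleted shares were 22.1% and 26.7% against 18.5% of all genes, and the enriched shares 9.30% and 6.67% against 16.4%. RPL13 was at 19.79 in both T channels and at 17.80 and 17.83 in IP, a log2 IP/T of -1.98 ± 0.02, and RPS9 had -1.83 ± 0.04 and RPL12 -1.82 ± 0.21. RPL22 was far apart from them, at 15.42 and 15.76 in T and 19.07 and 19.03 in IP, or 3.46 ± 0.22. Among mitochondrial subunits MRPL23 (-1.87 ± 0.09) and MRPL41 (-1.72 ± 0.11) were lowest and MRPL20 (2.44 ± 0.35) highest.

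Respiratory chain and ATP synthase genes had a median of -0.27 ± 0.16, with 14 of 78 depleted (17.9%) and 6 enriched (7.69%). Proteasome genes had -0.28 ± 0.16, with 3 of 45 depleted (6.67%) and 2 enriched (4.44%). Both medians were within the orientation SD of the median of all genes, and neither depleted share exceeded the 18.5% of all genes, while both enriched shares were below its 16.4%. Other genes of translation and energy supply were not lower than all genes by more than this SD either. Aminoacyl-tRNA synthetase genes had a median of -0.03 ± 0.06 (4 of 19 depleted, 2 enriched), glycolysis genes -0.06 ± 0.28 (3 of 17 depleted, 0 enriched) and translation initiation and elongation genes -0.20 ± 0.18 (7 of 62 depleted, 6 enriched). COX6A2, a muscle form of a cytochrome oxidase subunit, was the lowest respiratory chain gene, at -3.19 ± 0.34, and NDUFV3 the highest, at 1.72 ± 0.17. Among proteasome genes PSMB3 (-1.24 ± 0.12) was lowest and PSMB1 (1.20 ± 0.03) highest. Replication-dependent histone genes, whose messengers lack a poly(A) tail, had 13 of 58 depleted and 0 enriched, with a median of -0.45 ± 0.11. H2AC18 (-1.94 ± 0.26) and H4C12 (-1.79 ± 0.11) were lowest. Histone copies are nearly identical, so single members are uncertain.

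Most antigen presentation genes lay below the median of all genes, and interferon-stimulated genes were more spread. Antigen presentation genes had a median of -0.85 ± 0.20, with 9 of 23 depleted and 2 enriched. HLA-DMA, which loads peptide on class II molecules, was at 11.47 and 11.55 in T and 9.84 and 9.72 in IP (-1.73 ± 0.03), TAP2 had -1.51 ± 0.59 and HLA-DQB1 -1.41 ± 0.25. B2M, the light chain of class I molecules, was enriched, at 15.43 and 15.01 in T and 17.19 and 17.08 in IP (1.92 ± 0.38). Interferon-stimulated genes had a median of -0.57 ± 0.13, with 10 of 23 depleted and 2 enriched. ISG15 (-1.45 ± 0.31) and OASL (-1.44 ± 0.09) were lowest, whereas IRF9, a subunit of the interferon-activated complex ISGF3, reached 3.63 ± 0.42. The quartiles of antigen presentation genes, -1.13 and -0.56, both lay below the median of all genes. Those of interferon-stimulated genes, -1.15 and 0.32, lay on either side of it.

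Of 5 measured B lineage genes, 1 was depleted and 1 enriched. CD79A (-0.96 ± 0.65) and CD79B (-0.96 ± 0.04) lay just inside 2-fold on the T side and BLK past it (-1.42 ± 0.49), while POU2AF1, a B cell coactivator of octamer factors, had 15.20 and 15.16 in T and 18.18 and 18.05 in IP (2.94 ± 0.11). Among Hodgkin markers 5 of 12 were enriched and 0 depleted (median 0.39 ± 0.09), with MYC and FUT4 (CD15, 2.15 ± 0.31) highest. Interleukin, chemokine and receptor genes had 16 of 52 enriched and 7 depleted, led by IL1RAP (2.91 ± 0.14) and IL13 (2.86 ± 0.29), with a median of -0.10 ± 0.22, and CCR10 was lowest at -1.81 ± 0.73.

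Cholesterol synthesis genes had a median of -0.54 ± 0.30, with 6 of 24 depleted and 5 enriched. PMVK (-1.26 ± 0.09) and SCAP (-1.23 ± 0.12) were lowest, and HMGCS1, which makes the substrate of the rate-limiting reductase, was at 2.77 ± 0.39.

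Channel, keratin and olfactory receptor genes, families known from other tissues, had medians below that of all genes. Potassium, sodium and calcium channel genes had 15 of 38 depleted and 2 enriched (median -0.72 ± 0.25), keratin genes 8 of 18 and 1 (-0.81 ± 0.57), and olfactory receptor genes 9 of 21 and 0 (-0.76 ± 0.51). KCNJ12 (9.81 and 9.90 in T, 6.17 and 6.48 in IP) had -3.54 ± 0.28, KCNK3 had -1.94 ± 0.15, and KCNJ2, an inward rectifier like KCNJ12, had 2.48 ± 0.28. Under the processing alternatives the KCNJ12 value shrank to as little as -1.16. KRT15 (-1.69 ± 0.56) was lowest and KRT10 (1.01 ± 0.30) highest among keratins, and OR10A5 had -2.52 ± 0.32 and OR10J5 -2.09 ± 1.13. The keratin median was -0.38 on the array with IP in Cy5 and -1.19 on the other, and the olfactory median -0.31 and -1.03, so these lists rested largely on the array with T in Cy5, the channel with the fewest detected spots. After normexp correction with loess the medians shrank to -0.18 for channel, -0.22 for keratin and -0.27 for olfactory receptor genes, against -0.03 over all genes. The part of this in the result was not tested. Orphan GPR genes had 8 of 26 depleted and 3 enriched, with GPR78 at -4.00 ± 0.94 and GPR137B at 4.42 ± 0.27, with a median of -0.61 ± 0.54. That median did not keep its side of all genes. It was -0.17 against -0.20 on the array with IP in Cy5 alone, -0.07 without the detection filter, and turned to 0.07 with Cy3 and Cy5 values at most 1.5-fold apart. HOX cluster genes, developmental factors, had a median of -0.03 ± 0.21, above that of all genes, with 3 of 14 depleted and 1 enriched, and changed side with the alternatives too.

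Of the depleted probes, 20 were not well above background in either IP channel and have only a bound. The bound sets the T mean against the lowest signal well above background after normexp, loess and Aquantile normalisation. For ASCL2, a developmental factor with a measured log2 IP/T of -3.32, T was at least 1.28-fold above IP, and for the others the bound was lower still. These probes therefore do not show a 2-fold depletion.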

How the data were processed

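Two-colour Agilent arrays measured total and Ago2-IP RNA of L1236 cells. The deposited scanner files give intensity values per spot, read by the authors with Agilent Feature Extraction, version 10.7.3.1 per the headers and 10.5.1.1 in the submitters' processing notes. Each array was deposited under both of its samples. The deposited series table holds the authors' log2 values, quantile normalised in GeneSpring GX and filtered by the authors for detection and for Cy3 and Cy5 within 2-fold, per the study's methods. These log2 values were used. An IgG precipitation is not analysed here.

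Log2 IP minus log2 T was averaged over the 2 dye orientations with Python 3.11.15 and pandas 2.3.3, and the arithmetic was tested on simulated data. A probe counted as well above background if the majority of its spots were flagged so in the files. Genes were named through RefSeq accessions (GRCh38.p14, names and gene order only, since the array annotation uses another build). Named were MIR155HG, AGO2, the 12 genes highest and the 12 lowest among probes above background in all 4 channels with orientations at most 1 apart on the log2 scale, and, per list, up to 4 members farthest in the direction of its median plus the farthest one past 2-fold the other way. Some items that these rules name are not reported here. The members and lists were chosen with earlier results of these data known. Alternatives used limma 3.58.1 in R 4.3.3 (normexp with offset 50, on the median signals that the files give) and other filters, scalings and dyes. 1 RNA per group and 4 arrays limit the precision.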

Additional observations from a re-analysis of the deposited data

Results flagged for a closer look

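Over the whole array of 41000 probes, 1187 were well above background in both IP channels of sponge cells and in no T channel, which puts them outside the comparison, and 45 showed the opposite. In EV cells the numbers were 1014 and 153, and 621 of the 1187 were seen in IP alone there too. The 1187 were flagged because they hold signal that the comparison does not use. In sponge T labelled with Cy5, 54.1% of the spots were above background, fewer than in any other channel, and its part in this number was not tested. As bounds, 2 of the 1187 reached at least 2-fold, the median bound was 1.07-fold, and among named genes WASL, a regulator of actin branching, was highest at 2.07-fold or more, followed by ULBP1, a ligand of NKG2D, and CD69, an activation marker, both at 1.94-fold or more. ZNF253 and TNRC6A, each with another probe in the comparison, had bounds of 1.80-fold and 1.59-fold.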

How the results depend on the processing

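The count of enriched probes went from 3110 to 1742 with normexp, loess and Aquantile and to 1663 with normexp and quantile normalisation, and the count of depleted probes from 3890 to 1182 and 1386. Normexp with an offset shrinks ratios of dim spots by construction. Under the other alternatives these counts stayed within 1.5 times. Of 278 values of 26 named genes under the alternatives, none changed sign, and the exceptions to the 2-fold calls were those of TBX1. Of 57 gene lists, 48 kept their side of the median of all genes under all 13 alternatives. The exceptions were the lists of translation factors, glycolysis, spliceosome, HOX, other developmental factor, orphan GPR, interleukin and chemokine, microRNA host and myeloid marker genes. Normexp with loess moved the median of all genes by 0.15 on the log2 scale. Some list medians that moved by over 1.5 times are given with those lists, but not all. Across the alternatives the median ranged from -0.69 to -0.17 for interferon-stimulated genes and from 0.03 to 0.45 for Hodgkin markers. It ranged from 0.10 to 0.41 for numbered zinc finger genes and from -0.74 to -0.31 for cholesterol synthesis genes. For RAB genes it ranged from 0.30 to 0.89, and for miR-15 and miR-16 targets from 0.69 to 1.55. The lowest median among lists of at least 10 genes was that of antigen presentation genes in the values reported, and that of keratin, olfactory receptor, channel, cholesterol synthesis or cytosolic ribosomal protein genes under 7 of the 13 alternatives. For miR-155 targets the median ranged from 0.83 to 1.44, for the run from ZNF101 to ZNF254 from 3.81 to 4.31, and for the run from ZNF722 to ZNF92 from 2.48 to 4.09, the last 2 and gene span (rho 0.13 to 0.19) having been added after seeing the data. No paired analysis was possible because the replicate numbers are dyes of 1 RNA and no test was made. Transcripts low in both fractions are below what these arrays detect.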
